A study of Mus musculus with 8 samples.

Results

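The 10 genes described here encode G protein-coupled receptors of the oligodendrocyte lineage, namely Gpr17, Gpr37, Gpr37l1, S1pr1, S1pr5, Lpar1, P2ry1, P2ry12, Chrm1 and Chrm3. They were taken by symbol from the 24346 genes of the deposited expression table, and all 10 symbols were found. RNA was sequenced from 8 libraries of induced immature oligodendrocytes (iOLs), 4 labelled WT and 4 labelled MED23KO, called Med23+/+ and Med23-/- below. The cells were primary mouse oligodendrocyte precursor cells (OPCs) purified from the brains of young mice by immunopanning on the PDGF receptor alpha, after a step that removes endothelial cells and microglia. They were expanded with the mitogens PDGF-AA (10 ng/ml) and NT-3 (1 ng/ml), and both genotypes then received T3, the active thyroid hormone, at 15 nM together with the cytokine CNTF at 10 ng/ml for 1 day. According to the study, the Med23-/- cells come from Med23 fl/fl mice carrying Olig1-Cre, which acts in the oligodendrocyte lineage. Their control littermates are given as Med23 fl/fl with no Cre named, so effects of Cre and of Med23 loss cannot be told apart. MED23 is a subunit of Mediator, the complex that links transcription factors to RNA polymerase II. The labels do not say whether the libraries come from separate cultures or animals, so p-values measure the spread between these libraries, which may be technical.

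G protein-coupled receptors sit in the plasma membrane and pass the binding of an outside ligand to heterotrimeric G proteins, which act on effectors such as adenylyl cyclases and phospholipase C. In oligodendrocytes several of them mark a stage. GPR17 is known for a transient peak in committed precursors and for holding back final maturation, S1P5 and LPA1 for their presence in mature, myelinating cells, and the muscarinic receptors M1 and M3 for signalling in OPCs that delays differentiation. P2Y12 is better known from microglia, GPR37L1 from astrocytes and S1P1 from endothelial cells, so markers of those cells are given beside these genes.

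In short, after 1 day of T3 the most abundant receptor transcripts, Gpr17 and Gpr37l1, were lower in Med23-/- iOLs, whereas S1pr1, Chrm1 and Chrm3, which were present at far lower levels, were higher. P2ry1 and Gpr37 did not pass the test. S1pr5, Lpar1 and P2ry12 averaged less than 1 FPKM (fragments normalised for transcript length and library size) and were outside the main test. Genotypes were compared on log2(FPKM + 1) with limma over 12328 genes, those whose 8-library mean reached 1 FPKM, and a gene passed with a Benjamini-Hochberg adjusted p under 0.05 over all of these. Of all genes tested, 14.1% passed as lower and 15.9% as higher in Med23-/- iOLs. Of the receptors, 7 were tested, of which 2 passed as lower and 3 as higher. Of the 3 higher, Chrm1 and Chrm3 averaged less than 1 FPKM in Med23+/+ iOLs and were tested only because of their level in the Med23-/- libraries, so this count is a description. With a fold change above 2 on the log2(FPKM + 1) scale also required, 2 were lower and 1 was higher. The shares of all genes tested were 1.75% and 2.98%. That count depends on the scale. The ratio of mean FPKM, Med23-/- over Med23+/+, was 0.508 for Gpr17, 0.471 for Gpr37l1, 2.07 for S1pr1, 2.24 for Chrm1 and 5.57 for Chrm3. The libraries of the genotypes did not overlap for the same 2 lower and 3 higher genes, beside 15.3% and 16.3% of all genes tested. Log2 fold changes below are Med23-/- over Med23+/+ on the log2(FPKM + 1) scale. This scale shrinks differences, most for genes near or below 1 FPKM.

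**Figure D1:**
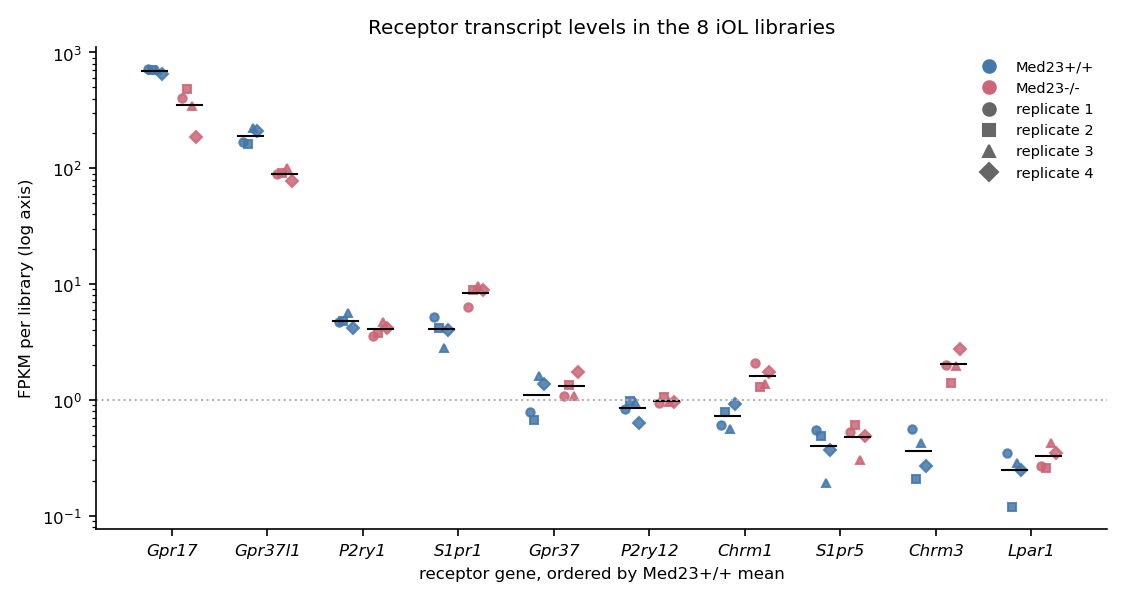
FPKM of each of the 10 receptor genes (horizontal axis) in each of the 8 libraries on a log axis, with Med23+/+ in blue, Med23-/- in red, a marker shape per replicate number and a black bar for the mean of 4. Gpr17 and Gpr37l1 lie far above the other receptors in both genotypes and fall in Med23-/-, S1pr1, Chrm1 and Chrm3 rise, and the dotted line marks the 1 FPKM used as the minimum mean.

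Med23, the deleted gene, averaged 12.5 ± 0.225 FPKM for Med23+/+ and 8.26 ± 0.247 FPKM for Med23-/- (mean ± SD of 4 libraries), a difference on the log2(FPKM + 1) scale of -0.55, SE 0.07, at an adjusted p of 0.000353 by limma, with no overlap between the genotypes. Between 15941 and 16469 genes were above 0 in each library. No counts were used here, so the depth behind each value is unknown. The lineage markers Olig1, Olig2, Sox10 and Nkx2-2 were abundant, with a summed level of 1258 to 1659 FPKM in Med23+/+ and 1003 to 1484 FPKM in Med23-/- libraries. These sums overlapped, but of the 4 genes, all tested, 2 passed as lower and none as higher, beside 14.1% and 15.9% of all genes tested. Their median log2 fold change was -0.25. In bulk RNA, fewer cells that express a gene and less of its RNA per cell cannot be told apart.

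The receptors differed in level from under 1 FPKM to 698 FPKM. In Med23+/+ iOLs the order of the means was Gpr17, Gpr37l1, P2ry1, S1pr1, Gpr37, P2ry12, Chrm1, S1pr5, Chrm3 and Lpar1. Library ranges overlapped between the neighbours P2ry1 and S1pr1, Gpr37 and P2ry12, P2ry12 and Chrm1, S1pr5 and Chrm3, and Chrm3 and Lpar1. In Med23-/- iOLs the order was Gpr17, Gpr37l1, S1pr1, P2ry1, Chrm3, Chrm1, Gpr37, P2ry12, S1pr5 and Lpar1. There, the overlapping neighbours were Chrm3 and Chrm1, Chrm1 and Gpr37, and S1pr5 and Lpar1. Chrm3 thus moved from rank 9 to rank 5. FPKM is scaled by transcript length, so these levels can be set side by side. The FPKM of the 10 genes summed to between 879 and 941 in the Med23+/+ and between 286 and 591 in the Med23-/- libraries. Gpr17 alone made up 74.7% to 80.4% of that sum in Med23+/+ and 65.4% to 81.3% in Med23-/- libraries. The other 8 genes, without Gpr17 and Gpr37l1, summed to 12.1 to 13.6 FPKM in Med23+/+ and 16.8 to 20.98 FPKM in Med23-/- libraries, which did not overlap.

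Gpr17 encodes an orphan receptor related to the P2Y and cysteinyl leukotriene receptors. It lies on chromosome 18, 31942997 to 31949636, on the minus strand (mm10, GENCODE M21), with its coding sequence of 1017 nt in 1 exon. In the Med23+/+ libraries it had 721, 707, 708 and 657 FPKM in the order of replicates 1 to 4, and in the Med23-/- libraries 405, 481, 348 and 187 FPKM. No Med23-/- value reached the lowest Med23+/+ value, and Med23-/- replicate 4 was the lowest. The means were 698 ± 28.5 FPKM for Med23+/+ and 355 ± 125 FPKM for Med23-/- (mean ± SD of 4 libraries), a difference on the log2(FPKM + 1) scale of -1.05, SE 0.24, at an adjusted p of 0.00991 by limma. The Med23-/- libraries were more scattered, with a coefficient of variation of 35.1% against 4.08% in Med23+/+. Without Med23-/- replicate 4 the log2 fold change was -0.78 (limma adjusted p = 0.00157). With all libraries it was -0.98 after quantile normalization and -0.87 with library weights. The study's methods state a limit of a fold change above 2. Whether Gpr17 passed that limit thus depended on this library and on the processing, and the ratio of the mean FPKM, 0.508, did not pass it. Gpr17 stayed among the most abundant transcripts, with 99.6% of the 24346 genes at a lower mean in Med23+/+ and 99.2% in Med23-/- iOLs.

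Gpr17 lies wholly within the span of Lims2, an adhesion adaptor gene on the opposite strand, and 188 of its exon bases (3.62%) are shared with Lims2 exons. Whether reads were assigned by strand is not stated, so reads in these bases may belong to either gene. Lims2 averaged 85.5 ± 3.72 FPKM for Med23+/+ and 62.7 ± 17.0 FPKM for Med23-/- (mean ± SD of 4 libraries) and did not pass (log2 fold change -0.48, limma adjusted p = 0.0611), well under the level of Gpr17.

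The genes whose levels followed Gpr17 most closely across the 8 libraries were Sgk1, Pak3, 2810442N19Rik, Slc44a1 and Cnp. Likeness was measured as the root mean square difference between deviations from each gene's own 8-library mean, on the log2(FPKM + 1) scale, and was 0.13 for Sgk1 and 0.17 for Cnp. Because the genes were picked over these same libraries, their low level in Med23-/- replicate 4 follows from the choice. Sgk1, a serum- and glucocorticoid-regulated kinase, was measured at 129, 127, 125 and 119 FPKM in Med23+/+ replicates 1 to 4 and at 56.2, 72.8, 55.5 and 32.4 FPKM in the Med23-/- replicates, and was thus also lowest in Med23-/- replicate 4. Cnp, which encodes a myelin enzyme, had 127 FPKM in that library against 174 to 252 FPKM in the other Med23-/- libraries. Pak3 is a p21-activated kinase gene and Slc44a1 a choline transporter gene. Their FPKM in Med23-/- replicate 4 was 11.2 and 27.9, again the lowest of the 8. Gpr37l1 ranked 162 by the same measure, with a difference of 0.34, and the other tested receptors ranked 3492 or further. The committed precursor list (Bmp4, Enpp6, Bcas1, Tns3, Neu4, Fyn, Rras2, Lims2, Tcf7l2 and Itpr2), the stage at which Gpr17 is known to peak, summed to 1521 to 1723 FPKM in Med23+/+ and to 654, 744, 589 and 489 FPKM in Med23-/- replicates 1 to 4. Of its 10 genes, all tested, 8 were lower and none higher, beside 14.1% and 15.9% of all genes tested. Their median log2 fold change was -1.42, against -0.01 for all genes tested. The most abundant of them, Bcas1, fell from 676 to 238 FPKM. Of 15 myelinating markers, 9 were tested, 8 were lower and 1 was higher (Gjb1, at 0.586 FPKM in Med23+/+ and tested only through its level in Med23-/-), Aspa was at 0 in every library, and the list summed to 918 to 1125 FPKM in Med23+/+ and 267 to 452 FPKM in Med23-/- libraries. The share of the Gpr17 difference that goes with the number of cells at this stage was not tested.

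**Figure D2:**
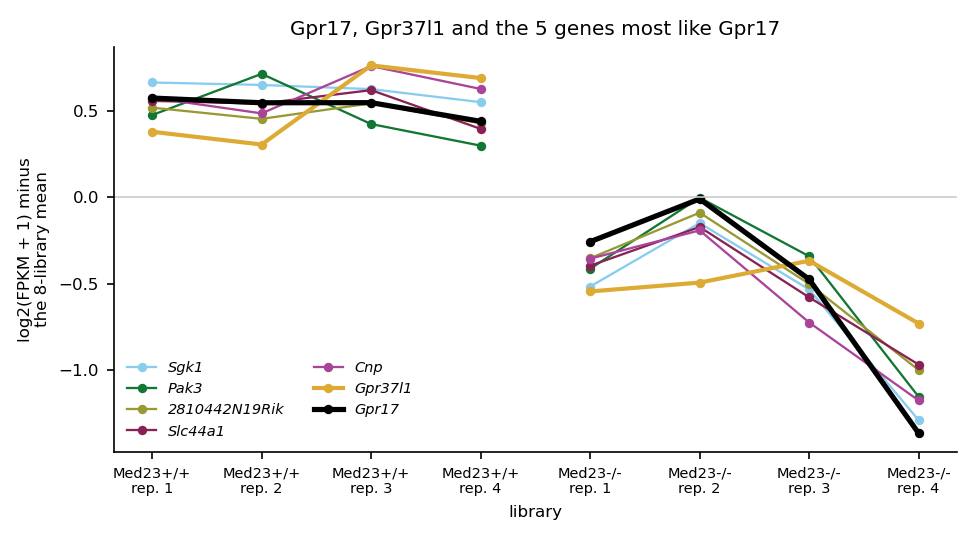
Deviation of log2(FPKM + 1) from each gene's 8-library mean (vertical axis) in each library (horizontal axis) for Gpr17 in black, Gpr37l1 in yellow and the 5 genes most like Gpr17 in thin lines, which join the points of a gene within a genotype and imply no order of replicates. Gpr17 and the 5 genes are above 0 in the 4 Med23+/+ libraries and reach their lowest point in Med23-/- replicate 4, where Gpr37l1 is also lowest but falls less. The 5 genes were picked for likeness to Gpr17 over these libraries, so their shared shape follows from the choice.

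Gpr37 and Gpr37l1 encode a pair of related receptors for which prosaposin has been proposed as a ligand, and GPR37 is known as a brake on late oligodendrocyte maturation. They were at very different levels. Gpr37l1 (chromosome 1, 135160234 to 135167681, 2 coding exons, coding length 1443 nt) was measured at 169, 161, 221 and 210 FPKM in Med23+/+ replicates 1 to 4 and at 88.6, 91.9, 100.4 and 77.8 FPKM in the Med23-/- replicates. The genotypes did not overlap, and the spread within Med23-/- was narrow. The mean fell from 190 ± 29.8 to 89.7 ± 9.35 FPKM (mean ± SD of 4), a difference on the log2(FPKM + 1) scale of -1.07, SE 0.12, at an adjusted p of 0.000262 by limma. Gpr37 (chromosome 6, 25665878 to 25690729, 2 coding exons, coding length 1800 nt) was measured at 0.791, 0.666, 1.62 and 1.36 FPKM in Med23+/+ replicates 1 to 4 and at 1.07, 1.34, 1.08 and 1.75 FPKM in the Med23-/- replicates. These ranges overlapped. Gpr37 did not pass (log2 fold change 0.15, 95% interval -0.25 to 0.54, limma adjusted p = 0.575). At its level the log2(FPKM + 1) scale shrinks fold changes, so this interval is not one for the fold change in FPKM. Gpr37l1 exceeded Gpr37 by 137 to 241 times in the Med23+/+ and by 44.5 to 93.0 times in the Med23-/- libraries.

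The level of Gpr17 relative to Gpr37l1 differed within each genotype. It was 4.26, 4.40, 3.20 and 3.12 in the Med23+/+ and 4.56, 5.23, 3.46 and 2.40 in the Med23-/- libraries, so the genotypes overlapped in this ratio although both genes fell. Beside Gpr37l1, an astrocyte list of 15 genes, 14 of them tested, had 4 lower and 2 higher. The shares of all genes tested were 14.1% and 15.9%. The list summed to 293 to 374 FPKM in Med23+/+ and 191 to 291 FPKM in Med23-/- libraries. The highest of the list was S100b, which oligodendrocyte lineage cells also express, with a mean of 125 FPKM for Med23+/+ and 17.5 FPKM for Med23-/-. The fall of S100b alone was as large as that of the mean sum, so the lower sum does not describe the other genes. All 4 genes that passed as lower, S100b among them, and 1 of the 2 higher also passed the fold limit of 2. The shares of all genes tested were 1.75% and 2.98%. None of the 15 was at 0 in every library. The part of astrocytes in the Gpr37l1 difference was not tested.

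The windows before the RefSeq starts of this pair are printed because the genes are relatives whose transcripts differed in level and in response. The Gpr37 window lies wholly within the GENCODE span of the gene given above, so it is upstream of the RefSeq start only. They show the 250 bases before the RefSeq start (GRCm38.p6, the sequence of mm10), 5′ to 3′ on the gene's strand. Capitals mark matches on either strand to GGGCGG, the core of the GC box bound by Sp1, to ACAAAG, a Sox-type motif, to CAGCTG, an E-box, or to AGGTCA, an element of nuclear receptors.
Gpr37l1, chr1:135167682-135167931, minus strand: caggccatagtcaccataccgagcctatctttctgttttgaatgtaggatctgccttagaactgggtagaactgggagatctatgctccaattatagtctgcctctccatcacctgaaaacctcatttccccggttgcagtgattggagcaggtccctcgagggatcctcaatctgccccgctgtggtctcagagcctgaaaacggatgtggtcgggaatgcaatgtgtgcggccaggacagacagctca
Gpr37, chr6:25689981-25690230, minus strand: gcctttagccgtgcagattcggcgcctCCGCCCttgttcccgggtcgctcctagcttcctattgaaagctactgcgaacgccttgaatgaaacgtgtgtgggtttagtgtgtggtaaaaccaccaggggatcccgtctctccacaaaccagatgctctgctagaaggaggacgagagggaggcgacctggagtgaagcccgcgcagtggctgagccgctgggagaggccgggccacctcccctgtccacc
The Gpr37l1 window held none of the 4 motifs in its 250 bases before and 50 bases after the start, and the Gpr37 window held GGGCGG at 2 places, of which the second lies after the start and is not printed. GGGCGG was present in 35.7% of all 32851 windows of this length in the table, ACAAAG in 18.7%, and CAGCTG and AGGTCA in 16.3% each.

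Of the lysophospholipid receptors, S1pr1, which couples to Gi and is known from OPCs and endothelial cells, rose. S1pr1 (chromosome 3, 115710433 to 115715072, 1 coding exon, coding length 1146 nt) was measured at 5.22, 4.15, 2.80 and 4.05 FPKM in Med23+/+ replicates 1 to 4 and at 6.31, 8.87, 9.55 and 8.80 FPKM in the Med23-/- replicates. Every Med23-/- library was above every Med23+/+ library. The means were 4.06 ± 0.991 FPKM for Med23+/+ and 8.38 ± 1.42 FPKM for Med23-/- (mean ± SD of 4 libraries), a difference on the log2(FPKM + 1) scale of 0.90, SE 0.16, at an adjusted p of 0.00306 by limma. Of an endothelial list of 10 genes, 1 was tested, Kdr, which rose from 0.505 to 1.65 FPKM on average (log2 fold change 0.77, limma adjusted p = 0.0398) and reached the minimum mean only through the Med23-/- libraries. The list summed to 0.544 to 1.24 FPKM in Med23+/+ and 1.24 to 3.22 FPKM in Med23-/- libraries, and Ly6c1 and Slco1a4 were at 0 in every library. The part of endothelial cells in the S1pr1 difference was not tested.

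S1pr5, the receptor of mature oligodendrocytes, was weakly expressed in both genotypes. It (chromosome 9, 21242912 to 21248443, 1 coding exon) was measured at 0.554, 0.484, 0.193 and 0.369 FPKM in Med23+/+ replicates 1 to 4 and at 0.529, 0.609, 0.306 and 0.485 FPKM in the Med23-/- replicates. These ranges overlapped. In a fit of the 18429 genes that any library lists above 0, in which 8.72% of genes passed as lower and 11.1% as higher, the log2 fold change of S1pr5 was 0.09 (95% interval -0.13 to 0.30, limma adjusted p = 0.592). The level of S1pr1 was 8.58 to 14.5 times that of S1pr5 in the Med23+/+ and 11.9 to 31.3 times in the Med23-/- libraries, so these ranges overlapped.

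Lpar1, the main lysophosphatidic acid receptor of myelinating cells, was the lowest of the 10. Lpar1 (chromosome 4, 58435255 to 58553898, 3 coding exons) was measured at 0.345, 0.119, 0.284 and 0.246 FPKM in Med23+/+ replicates 1 to 4 and at 0.267, 0.261, 0.425 and 0.348 FPKM in the Med23-/- replicates. The genotypes overlapped, and in the fit of all 18429 genes the log2 fold change was 0.09 (95% interval -0.06 to 0.24, limma adjusted p = 0.419). At these levels log2(FPKM + 1) cannot show large fold changes, so the narrow interval does not show that the fold was small.

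P2ry1 encodes a Gq-coupled ADP receptor through which OPCs are known to respond to nucleotides. P2ry1 (chromosome 3, 61002795 to 61008982, 1 coding exon, coding length 1119 nt) was measured at 4.67, 4.83, 5.58 and 4.20 FPKM in Med23+/+ replicates 1 to 4 and at 3.59, 3.77, 4.72 and 4.14 FPKM in the Med23-/- replicates. The ranges overlapped, and P2ry1 did not pass (log2 fold change -0.20, 95% interval -0.45 to 0.04, limma adjusted p = 0.190). Of its exon bases, 23.1% are shared with an annotated antisense gene, Gm37035, which is not among the symbols of the table. Since P2ry1 was at 4.82 ± 0.571 FPKM and S1pr1 at 4.06 ± 0.991 FPKM in Med23+/+ iOLs, their libraries overlapped there, whereas S1pr1 exceeded P2ry1 in 4 of 4 Med23-/- libraries, by 1.76 to 2.35 times. The upstream window of P2ry1 is shown as the receptor closest to S1pr1 in level whose test did not pass.
P2ry1, chr3:61002535-61002784, plus strand: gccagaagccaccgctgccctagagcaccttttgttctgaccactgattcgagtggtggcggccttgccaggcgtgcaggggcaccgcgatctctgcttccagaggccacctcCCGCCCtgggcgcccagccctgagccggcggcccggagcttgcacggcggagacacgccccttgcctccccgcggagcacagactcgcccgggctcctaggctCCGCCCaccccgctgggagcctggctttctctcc
It held GGGCGG at 2 places and none of the other motifs.

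P2ry12 encodes the Gi-coupled ADP receptor that marks resting microglia and is also reported in oligodendrocytes. It (chromosome 3, 59216272 to 59262871, 1 coding exon) lies inside Med12l, a Mediator kinase module gene on the opposite strand, with which it shares 9 exon bases. P2ry12 was measured at 0.83, 0.983, 0.964 and 0.628 FPKM in Med23+/+ replicates 1 to 4 and at 0.932, 1.06, 0.964 and 0.954 FPKM in the Med23-/- replicates. The genotypes overlapped, with a log2 fold change of 0.10 in the fit of all 18429 genes (95% interval -0.08 to 0.28, limma adjusted p = 0.444). Of 20 microglia markers, 18 averaged less than 1 FPKM, neither of the 2 tested passed, and none was at 0 in every library. The list summed to 9.53 to 12.1 FPKM in Med23+/+ and 13.2 to 16.8 FPKM in Med23-/- libraries.

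Both muscarinic acetylcholine receptor genes, whose products couple to Gq, were higher in Med23-/- iOLs. Chrm3 (chromosome 13, 9875486 to 10360847, 1 coding exon, coding length 1767 nt) was measured at 0.561, 0.206, 0.422 and 0.268 FPKM in Med23+/+ replicates 1 to 4 and at 1.99, 1.41, 1.97 and 2.75 FPKM in the Med23-/- replicates. The lowest Med23-/- library was above the highest Med23+/+ library. The means were 0.364 ± 0.160 FPKM for Med23+/+ and 2.03 ± 0.548 FPKM for Med23-/- (mean ± SD of 4 libraries), a difference on the log2(FPKM + 1) scale of 1.14, SE 0.16, at an adjusted p of 0.000832 by limma. Chrm1 (chromosome 19, 8663789 to 8683587, 1 coding exon, coding length 1380 nt) was measured at 0.604, 0.785, 0.565 and 0.931 FPKM in Med23+/+ replicates 1 to 4 and at 2.06, 1.29, 1.36 and 1.75 FPKM in the Med23-/- replicates, again with no overlap. Its means were 0.721 ± 0.169 FPKM for Med23+/+ and 1.62 ± 0.359 FPKM for Med23-/- (mean ± SD of 4 libraries), a difference on the log2(FPKM + 1) scale of 0.60, SE 0.14, at an adjusted p of 0.0111 by limma. For both genes, being tested already required a higher level in the Med23-/- libraries. The size also depended on the pseudocount. With 0.1 in place of 1 the log2 fold change was 2.23 for Chrm3 and 1.06 for Chrm1, and the ratio of mean FPKM was 5.57 for Chrm3 and 2.24 for Chrm1.

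Chrm3 was at 0.262 to 0.928 times the level of Chrm1 in the Med23+/+ and at 0.964 to 1.57 times in the Med23-/- libraries, with no overlap. Both genes are known from neurons, and neuron markers moved with them. Of 15 neuron markers, 14 were tested, 10 were higher and none lower, beside 15.9% and 14.1% of all genes tested. Their median log2 fold change was 0.98, against -0.01 for all genes tested. The list summed to 299 to 331 FPKM in Med23+/+ and 415 to 522 FPKM in Med23-/- libraries, and none was at 0 in every library. The highest of these genes was Map2, which OPCs also express, with a mean of 161 FPKM for Med23+/+ and 202 FPKM for Med23-/-. The part of neurons in the Chrm1 and Chrm3 differences was not tested. OPC markers moved in both directions, with 4 of 10 higher and 3 lower, and the most abundant, Ptprz1, did not pass. The OPC list summed to 1119 to 1285 FPKM in Med23+/+ and 1485 to 1582 FPKM in Med23-/- libraries. A pericyte and fibroblast list of 11 genes summed to 36.7 to 53.1 FPKM and 101 to 128 FPKM in the same order. Of its 4 genes tested, 1 was higher and none lower, namely Cspg4, the most abundant of the list and also an OPC marker, which rose from 38.9 to 102.5 FPKM. The upstream window of Chrm3, the receptor with the highest log2 fold change of those tested, is shown for comparison with the others. Its end nearest the RefSeq start lies within the GENCODE span of the gene given above.
Chrm3, chr13:10360804-10361053, minus strand: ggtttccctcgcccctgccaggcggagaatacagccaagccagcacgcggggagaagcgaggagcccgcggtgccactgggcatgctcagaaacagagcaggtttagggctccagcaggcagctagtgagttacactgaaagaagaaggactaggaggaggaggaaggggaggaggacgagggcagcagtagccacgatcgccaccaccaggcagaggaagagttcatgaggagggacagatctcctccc
It held none of the 4 motifs. Windows matched 7 of the 10 receptors, all but Gpr17, S1pr1 and Chrm1. The windows of S1pr5 and of Lpar1, which has 3 alternative windows, held GGGCGG at 2 and up to 1 places, ACAAAG was found at 1 place in each of 2 Lpar1 windows, and that of P2ry12 held each of the other 3 motifs at 1 place. A match of these letters is no evidence that a factor binds there.

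**Figure D3:**
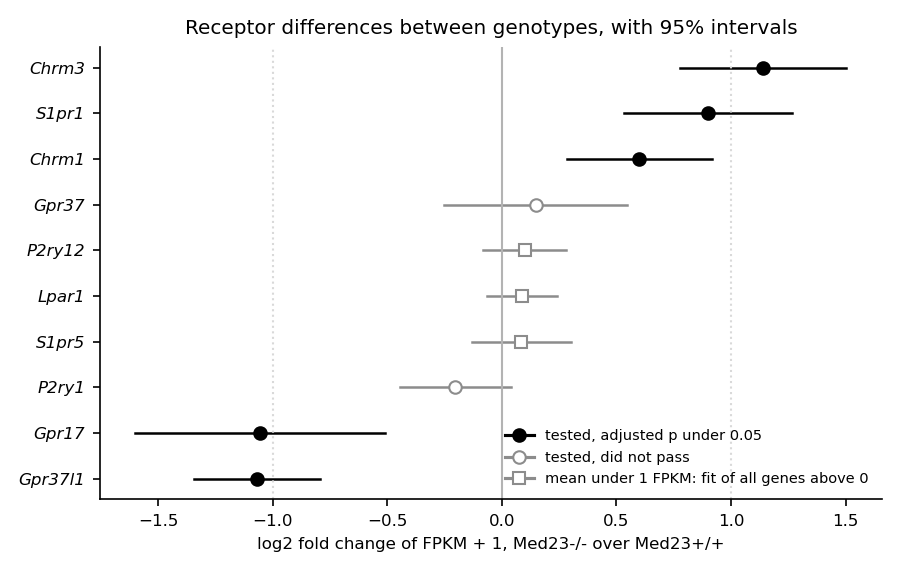
Log2 fold change of FPKM + 1, Med23-/- over Med23+/+ (horizontal axis), of the 10 receptor genes with 95% intervals from limma (n = 4 libraries each), filled where the adjusted p is under 0.05 and square where the gene averaged under 1 FPKM and comes from the fit of all genes above 0. Gpr37l1 and Gpr17 lie near -1, Chrm1, S1pr1 and Chrm3 between 0.60 and 1.14, and the other 5 intervals include 0.

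The coding sequences of 7 of the 10 receptors lie in 1 exon, and their coding lengths run from 1017 to 1800 nt. Genes with 1 coding exon included Gpr17, which was lower, and S1pr1, Chrm1 and Chrm3, which were higher. An annotated gene on the opposite strand shared exon bases with 5 of the 10 genes.

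The genes around the receptors were described by 17 lists of other receptors, G protein subunits, effectors, regulators and ligand enzymes, 193 genes in all. Of these, 138 were tested, 20 (14.5%) passed as lower and 38 (27.5%) as higher, beside 14.1% and 15.9% of all genes tested. Their median log2 fold change was 0.12, against -0.01 for all genes tested. Genes of a list are not independent of each other, and these shares describe these 8 libraries.

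Of the other receptors of the same families that were tested, most did not pass. Of 20 genes, 8 were tested, and 2 were lower and 1 was higher, beside 14.1% and 15.9% of all genes tested. The other 12 averaged less than 1 FPKM. In the fit of all 18429 genes, where 11.1% passed as higher, Chrm2 (0.163 to 0.566 FPKM) and Lpar3 (0.0543 to 0.679 FPKM) were higher. Their limma adjusted p were 0.00499 and 0.0125, and the genotypes did not overlap. The rest of those in that fit did not pass. Lpar6, a lysophosphatidic acid receptor, rose from 2.70 to 5.11 FPKM (log2 fold change 0.72, limma adjusted p = 0.00767), and P2ry2, a receptor for ATP and UTP, fell from 2.12 to 1.07 FPKM (log2 fold change -0.64, limma adjusted p = 0.0348). Ednrb, the endothelin B receptor and the most abundant of the list, fell from 108 to 91.6 FPKM (log2 fold change -0.24, limma adjusted p = 0.0391). Cysltr1 and Cysltr2, receptors for the cysteinyl leukotrienes related to GPR17, were at 0 in every library.

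A wider list of 48 receptors known from the lineage had 37 genes tested. Of these, 15 were higher and 2 lower, beside 15.9% and 14.1% of all genes tested. The median log2 fold change of the list was 0.27. Of the 15 higher, Adora2b and Fzd7 reached the minimum mean only through the Med23-/- libraries. Ackr3, a scavenging chemokine receptor, rose from 3.66 to 15.8 FPKM (log2 fold change 1.86, limma adjusted p = 2.6e-05). Adgrg1, the adhesion receptor GPR56 known to keep OPCs proliferating, rose from 19.2 to 49.9 FPKM (log2 fold change 1.30, limma adjusted p = 0.00045). Fzd1, a Wnt receptor, fell from 11.3 to 7.52 FPKM (log2 fold change -0.52, limma adjusted p = 0.0142), and Adgrb3, an adhesion receptor, from 57.2 to 41.4 FPKM (log2 fold change -0.45, limma adjusted p = 0.0166). Adgrl3, the most abundant of the list, had 84.7 and 77.0 FPKM and did not pass.

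Most G protein subunit genes did not pass. Of 28 subunit genes, 23 were tested, 15 did not pass, and 4 were lower and 4 higher, near the 14.1% and 15.9% of all genes tested, with a median log2 fold change of -0.06. Gnas, the Gs subunit and the most abundant at a mean of 577 FPKM, did not pass, while its relative Gnal rose (log2 fold change 0.34). Neither of the 2 tested genes of the Gq class, Gnaq and Gna11, through which M1, M3 and P2Y1 signal, passed, nor did Gna12 or Gna13. Of the Gi and Go genes, Gnao1 fell from 69.8 to 52.2 FPKM (log2 fold change -0.41, limma adjusted p = 0.00751), Gnaz rose from 5.73 to 9.09 FPKM (log2 fold change 0.57, limma adjusted p = 0.00785), and Gnai2, the most abundant, had 117 and 126 FPKM and did not pass. Gnb4, a beta subunit, fell from 51.1 to 20.4 FPKM (log2 fold change -1.28, limma adjusted p = 6.99e-05), and Gng3, a gamma subunit known from neurons, rose from 18.8 to 35.1 FPKM (log2 fold change 0.81, limma adjusted p = 0.0146). Gnb1, the most abundant beta subunit gene, fell from 258 to 211 FPKM, Gng7 fell from 17.1 to 11.9 FPKM and Gnb5 rose from 13.1 to 17.3 FPKM.

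Effectors moved in both directions, as did all genes tested, of which 14.1% passed as lower and 15.9% as higher. Of 15 adenylyl cyclase and cAMP phosphodiesterase genes tested, 3 were lower and 6 higher, led by the phosphodiesterases Pde8b, which fell from 11.5 to 5.89 FPKM (log2 fold change -0.86), and Pde8a, which rose from 0.653 to 5.10 FPKM (log2 fold change 1.80) and reached the minimum mean only through the Med23-/- libraries. Pde4d also fell (log2 fold change -0.50), Pde7b also rose (1.01), and Pde4b, the most abundant, did not pass. Of 10 cAMP effectors 2 were higher, among them Rapgef3, the exchange factor EPAC1 that acts downstream of cAMP, which rose from 3.87 to 15.3 FPKM (log2 fold change 1.75, limma adjusted p = 2.1e-05). Prkacb, a catalytic subunit gene of protein kinase A, rose (log2 fold change 0.30), and Prkar1a, the most abundant, did not pass. Of 8 genes of the phospholipase C branch tested, 3 were lower and 2 higher. Itpr2, the IP3 receptor of committed precursors, fell from 90.8 to 32.5 FPKM (log2 fold change -1.48, limma adjusted p = 0.000226), and Prkce, a protein kinase C gene, rose from 10.9 to 18.6 FPKM (log2 fold change 0.71, limma adjusted p = 0.000757). Plcb1 fell and Plcb4 rose (log2 fold changes -0.55 and 0.60), and Prkcb, the most abundant, did not pass. Of 7 receptor kinases and arrestins, only Adrbk2 (GRK3) passed, with a rise from 0.838 to 3.08 FPKM, and it too reached the minimum mean only through the Med23-/- libraries. Of 9 RGS genes tested, which speed up G protein turn-off, Rgs3, Rgs17 and Rgs12 were higher and none was lower. Grk6 and Rgs7, the most abundant of these lists, did not pass.

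The enzymes that make or clear the ligands were also measured. For lysophosphatidic acid, Enpp2, which encodes autotaxin, fell from 201 to 109 FPKM (log2 fold change -0.90, limma adjusted p = 0.00329), and Lcat, an acyltransferase gene, from 5.54 to 2.34 FPKM (log2 fold change -0.99). For sphingosine 1-phosphate, 8 genes were tested. Ppap2b (lipid phosphate phosphatase 3) rose from 30.04 to 52.3 FPKM (log2 fold change 0.78), and Ppap2c and the transporter gene Spns2 fell (log2 fold changes -1.38 and -0.47). For nucleotides, Entpd1, the ectonucleotidase CD39, rose from 1.42 to 5.27 FPKM (log2 fold change 1.37, limma adjusted p = 6.73e-05), and Panx1, a channel that releases ATP, from 20.6 to 28.2 FPKM (log2 fold change 0.43, limma adjusted p = 0.00620). For acetylcholine, Ache, which breaks it down, rose from 2.07 to 3.76 FPKM, and Bche, a related esterase, fell from 8.56 to 1.74 FPKM (log2 fold changes 0.63 and -1.78, limma adjusted p = 0.00565 and 3.6e-05). Slc5a7, the choline uptake transporter gene, fell from 2.86 to 1.19 FPKM (log2 fold change -0.83). Psap, which encodes prosaposin, was abundant at 165 and 190 FPKM and did not pass (log2 fold change 0.20, limma adjusted p = 0.0853).

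**Figure D4:**
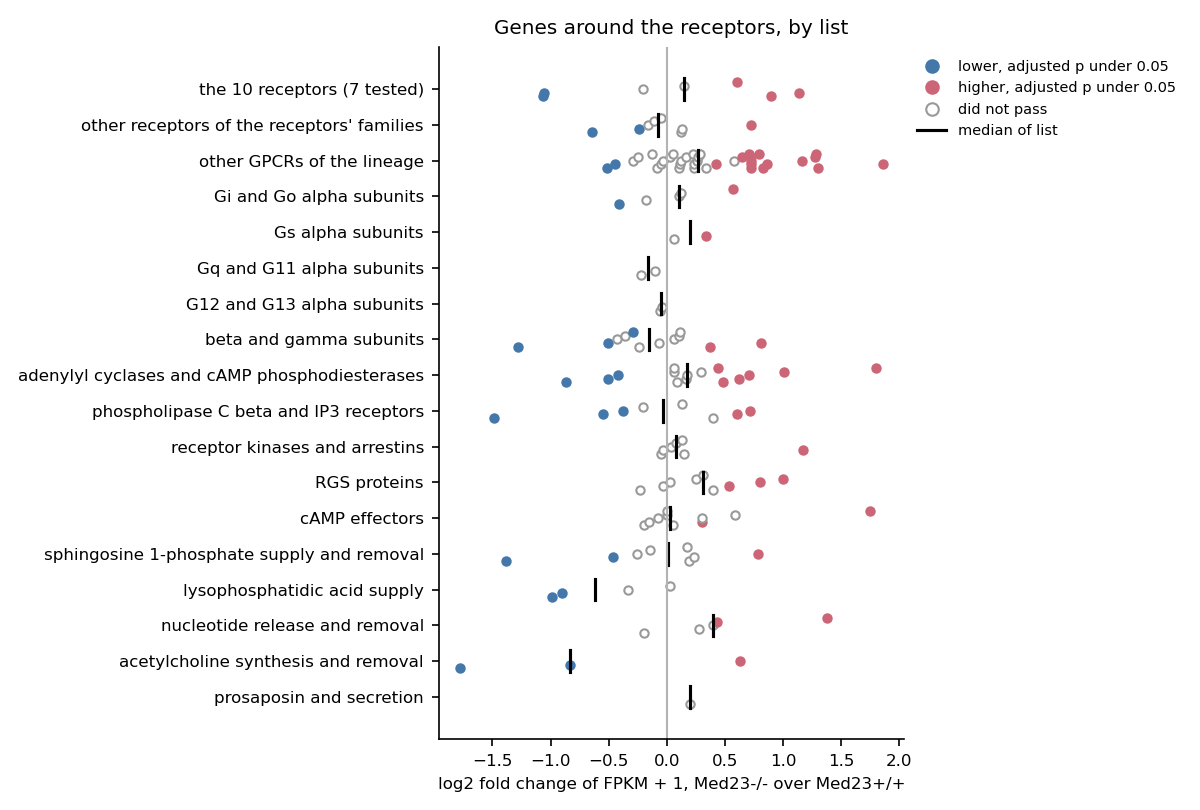
Log2 fold change of FPKM + 1, Med23-/- over Med23+/+ (horizontal axis), of each tested gene in the receptor set and in 17 lists of signalling partners (vertical axis), with genes that passed as lower in blue, as higher in red and the others open, and a black bar for the median of each list. Of the genes in the 17 lists, 20 are blue and 38 red, and in the wider list of receptors of the lineage, which has the most tested genes, 15 of 37 passed as higher beside 15.9% of all genes tested.

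**Figure D5:**
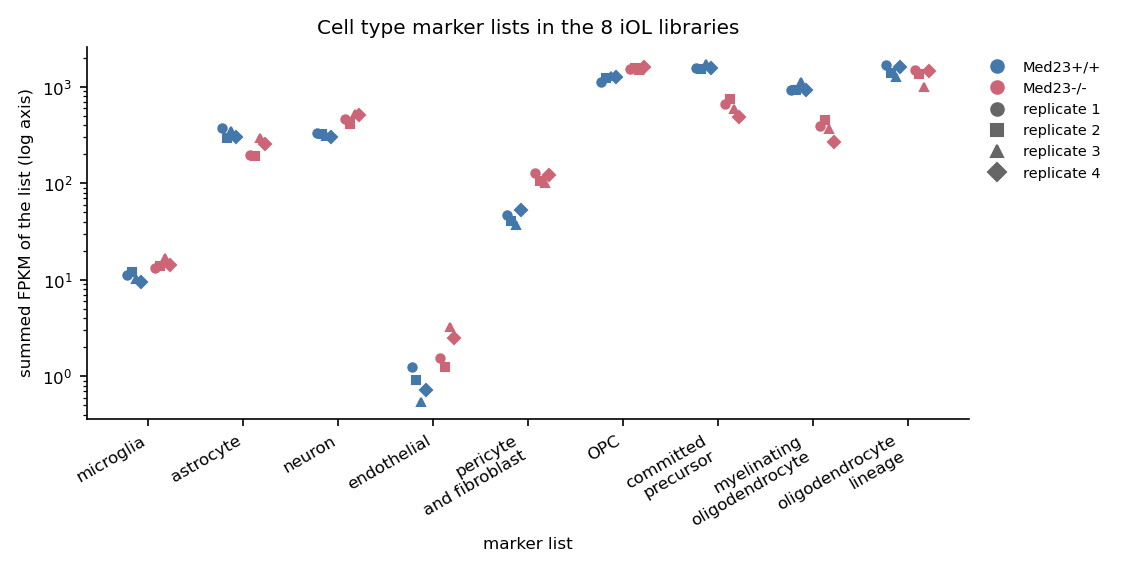
Summed FPKM of each cell type marker list (horizontal axis) in the 8 libraries on a log axis, Med23+/+ in blue and Med23-/- in red, with a marker shape per replicate number. Committed precursor, myelinating and astrocyte lists are lower in the Med23-/- libraries, the astrocyte list through S100b. Neuron, OPC, pericyte and fibroblast, and microglia lists are higher. The endothelial list is also higher, with ranges that touch, and it and the microglia list reach no more than 16.8 FPKM in any library.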

How the data were processed

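The deposited table holds, per gene, FPKM values that the authors computed with Cuffdiff (options -b and -u) for each library, after read trimming with Cutadapt and alignment to mm10 with TopHat2. Tool versions, gene annotation, library normalization and any strand setting are not given in the sources used here. Read counts were not used, so depth and counting error are unknown. The authors' columns of a mean per genotype, log2 fold change, p-value and q-value were deposited beside them, hold the study's own comparison and were not used. No library column was left out.

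Values were analysed as log2(FPKM + 1) with limma 3.58.1 (R 4.3.3, moderated test with a variance trend, two-sided) over genes whose mean across the 8 libraries reached 1 FPKM. A gene passed at a Benjamini-Hochberg adjusted p under 0.05 over all genes tested. The script was tested on simulated data. Summaries and plots used Python 3.11.15, numpy 2.4.6, pandas 2.3.3 and matplotlib 3.10.9. Gene positions came from GENCODE M21 and upstream windows from RefSeq (GRCm38.p6), by symbol.

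The receptors and gene lists were chosen with earlier results of these data known. The text names all 10 receptors, the 5 genes most like Gpr17, in each signalling list the up to 2 highest and 2 lowest log2 fold changes that passed and the most abundant gene, and in each marker list the most abundant gene and those at 0, except that the most abundant microglia marker is not reported here. Lims2, Med12l, Gm37035, Gna11, Gna13, Rgs12, Adora2b, Fzd7, Gjb1, Chrm2, Lpar3 and the members of the committed precursor and lineage lists are named outside that rule, after their values were seen. Alternatives were a pseudocount of 0.1, 2 other filters, quantile and median-ratio scaling, no variance trend, library weights, a replicate block, a fold limit of 2 and leaving out each library. A protein comparison was planned and not run.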

Additional observations from a re-analysis of the deposited data

How the results depend on the processing

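Gpr17, Gpr37l1, S1pr1, Chrm1 and Chrm3 kept their direction and an adjusted p under 0.05 by limma in every alternative fit that tested them. Gpr37 and P2ry1 passed under none of 15. The fold limit of 2 is a further requirement on the main fit, and S1pr1 and Chrm1 did not meet it. With a mean of at least 5 FPKM required, Chrm1 and Chrm3 were no longer tested and 1 receptor (S1pr1) was higher, 22 genes of the signalling lists were higher, and 1281 of all genes were higher. With a fold change above 2 on the log2(FPKM + 1) scale also required, 1 receptor (Chrm3) was higher, and 216 of all genes were lower and 367 higher. Leaving out each library in turn gave 2 to 2 receptors lower and 3 to 3 higher, 1227 to 1669 of all genes lower and 1531 to 1867 higher, and 16 to 19 genes of the signalling lists lower and 34 to 43 higher. The log2 fold change of Gpr17 then ran from -1.23 to -0.78, of Gpr37l1 from -1.15 to -0.99, of S1pr1 from 0.77 to 1.02, of Chrm1 from 0.52 to 0.66 and of Chrm3 from 1.03 to 1.24.

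With the replicate number as a block, 2 receptors were lower and 3 higher, and 1835 of all genes were lower and 2085 higher. Same-numbered libraries of the genotypes had correlations of 0.13, -0.096, -0.026 and 0.159 between their deviations from the genotype means, so the numbers were not taken as a pairing. Not every library correlated best with its own number.

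The depth behind the FPKM values is unknown, so the receptors under 1 FPKM have no counting interval, and the log2(FPKM + 1) scale understates their fold changes.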
